A study of Homo sapiens with 6 samples.

Results

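The comparison described here set 2 RNA-seq libraries of SH-SY5Y cells carrying a hairpin against TARDBP beside 2 libraries of the same cells carrying control hairpin 1, 4 of the 6 libraries of the series. The libraries were chosen by their labels, and the 2 libraries of control hairpin 2 entered no test of this comparison. Both groups were SH-SY5Y, an established human neuroblastoma line, infected with lentivirus in medium with 8 µg/mL polybrene and kept in 2 µg/mL puromycin for 3 days starting 48 hours after infection. The TARDBP hairpin was TRCN0000016038 and control hairpin 1 was SHC007. Total RNA was depleted of ribosomal RNA and turned into stranded libraries. The series' design asks how RNA levels differ between cells with the TARDBP hairpin and cells with control hairpins. It has 1 TARDBP hairpin and 1 cell line, and the labels do not tell whether the 2 libraries under a hairpin were grown apart. The p-values therefore measure only how far these libraries lie from each other, a spread that may be technical, and an effect of this hairpin on other RNAs cannot be told apart from an effect of losing TARDBP.

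TARDBP encodes TDP-43, a nuclear protein that binds UG-rich stretches of RNA, holds back cryptic exons, controls the splicing and level of many neuronal transcripts and keeps its own level in check by acting on its own messenger RNA. It leaves the nucleus and aggregates in most patients with amyotrophic lateral sclerosis (ALS) and in many with frontotemporal dementia. SH-SY5Y cells descend from a sympathetic neuroblastoma. They divide, carry a noradrenergic identity set by transcription factors such as HAND2 and PHOX2A, and can shift between that identity and a mesenchymal one. Short hairpin RNAs are processed into small RNAs that direct the breakdown of a matching messenger RNA. Calls were lost without control library 1 or control library 2 for PHOX2A (adjusted p 0.0509 to 0.0547).

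TARDBP was lower in both libraries with its hairpin than in both libraries with control hairpin 1. Its level was 18.8 and 23.8 CPM under the TARDBP hairpin, against 81.9 and 72.6 under control hairpin 1, where CPM is the count relative to the library's TMM-scaled total. This was a log2 fold change (log2FC) of -1.86 with a standard error (SE) of 0.14 and an adjusted p of 1.17e-04 in edgeR's quasi-likelihood test. The groups did not overlap, and the adjusted p stayed below 0.05 with any of the 4 libraries left out. Without either library of control hairpin 1 it did so only narrowly. In a fit of all 6 libraries, which gives every value against control hairpin 2 below, TARDBP stood at a log2FC of -2.02 against control hairpin 2, and the control hairpins differed by 0.18 (adjusted p = 0.273).

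Counts summed to 20365395 and 19281358 in the libraries of the TARDBP hairpin, beside 19111171 and 19924728 in those of control hairpin 1. Of 28953 lines in the files, 27961 genes and 992 repeat subfamilies, 16859 had enough counts to be tested. A gene or subfamily is called, and written as rose or fell, when its adjusted p is below 0.05. At that threshold 6985 were called, which is 41.4% of those tested. Of these 3256 rose (19.3%) and 3729 fell (22.1%). Genes made up 6863 of the calls, and 2706 of those genes changed at least 2-fold, 1409 upward and 1297 downward. Every count of list members below is read against these shares. Libraries that do not overlap between groups were common too. Both TARDBP-hairpin libraries lay above both of control hairpin 1 in 6028 of the 16859 tested, and below both in 6163. Far fewer calls were made with a library of control hairpin 1 left out than with one of the TARDBP hairpin left out. Such fits keep 1 library in a group and differ in power. Their prior degrees of freedom were 2.03 and 2.04 without a control library, against 48.1 and 59.2 without a TARDBP-hairpin library. A call lost without a control library therefore does not show that it rested on that library. Between the control hairpins themselves 43.2% of 17163 genes and subfamilies tested differed, 7418 in number. For that reason the level against control hairpin 2 is given beside many named genes as a value. Below, TARDBP library 1 and 2 and control library 1 and 2 stand for the libraries of the TARDBP hairpin and of control hairpin 1, and a range after a lost call is the range of adjusted p without that library.

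**Figure D1:**
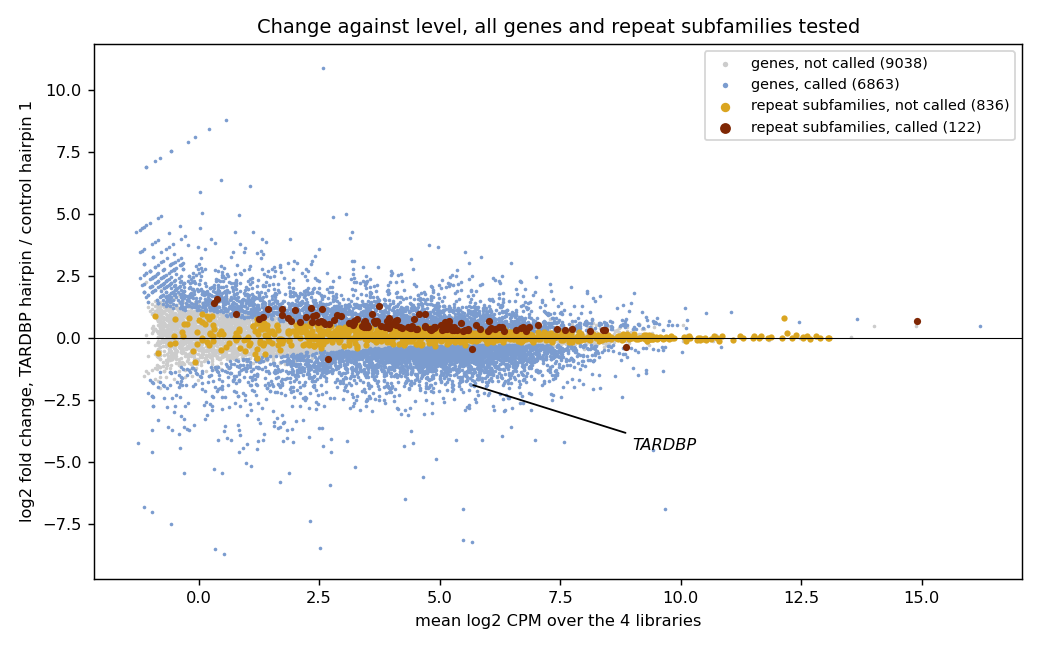
Log2 fold change of the TARDBP hairpin against control hairpin 1 (vertical axis) by mean log2 CPM over the 4 libraries (horizontal axis), 1 point per gene or repeat subfamily tested. Called genes spread to both sides of 0, while 119 of the 122 called repeat subfamilies lie above 0 and only 8 of them changed 2-fold or more.

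The 15 largest rises included genes of the cell surface and of the space around the cell. FCGBP, a secreted protein of mucus, measured 14.7 and 19.4 CPM under the TARDBP hairpin, against 1.50 and 0.295 under control hairpin 1 (log2FC 4.26, SE 0.45, adjusted p = 4.49e-04). ADAMTS2, which trims fibrillar procollagens, stood at 15.1 and 18.1 against 0.671 and 1.33 CPM in the same order, a log2FC of 4.04 (SE 0.28). CRTAC1, a calcium-binding matrix protein, measured 75.7 and 92.1 against 8.15 and 7.27 CPM (3.44, SE 0.15), and KIAA1324, a transmembrane protein, 53.9 and 61.4 against 4.75 and 4.37 CPM (3.66, SE 0.14). Only genes without overlap between groups could enter the 15 largest rises, so their libraries lay apart by that choice. The same 4 genes were also higher with the TARDBP hairpin than with control hairpin 2, by log2FC of 4.38 for FCGBP, 1.97 for ADAMTS2, 3.29 for CRTAC1 and 4.56 for KIAA1324. SAMD11, a sterile alpha motif protein, followed the same pattern at 156 and 164 against 16.8 and 22.9 CPM, with 3.01 against control hairpin 1 and 1.47 against control hairpin 2.

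Others of the 15 largest rises stood near or below the level of control hairpin 2. ITGB3, the beta chain of the vitronectin receptor, measured 54.7 and 46.9 CPM under the TARDBP hairpin, against 3.51 and 4.03 under control hairpin 1 (log2FC 3.75, SE 0.15, adjusted p = 2.22e-05). Control hairpin 2 was 3.64 above control hairpin 1 on the log2 scale (adjusted p = 1.84e-05), and the TARDBP hairpin stood only 0.13 above control hairpin 2. ADAM9, a membrane protease that sheds surface proteins, rose from 11.1 and 10.7 to 95.9 and 113 CPM (3.26) but stood at -0.45 against control hairpin 2. BEX3, a small protein that binds the neurotrophin receptor p75, rose by 3.03 and stood at -0.16 against control hairpin 2. For PYGL, the liver form of glycogen phosphorylase, these values were 2.78 and -0.029, and for HSPB8, a small heat shock protein of chaperone-assisted autophagy, 2.71 and 0.20. ANKRD1, a nuclear ankyrin-repeat protein and target of YAP, went furthest apart, at 78.0 and 65.0 against 6.19 and 14.9 CPM with a log2FC of 2.75 against control hairpin 1 and -1.99 against control hairpin 2. GFRA1, a receptor for the growth factor GDNF, SSPN, a member of the dystrophin complex, the transporter gene SLC16A9 and SMIM32 rose by 3.10, 3.11, 3.18 and 2.86, and stood 0.84, 0.58, 0.68 and 0.58 above control hairpin 2. All 15 rises were called with any of the 4 libraries left out.

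**Figure D2:**
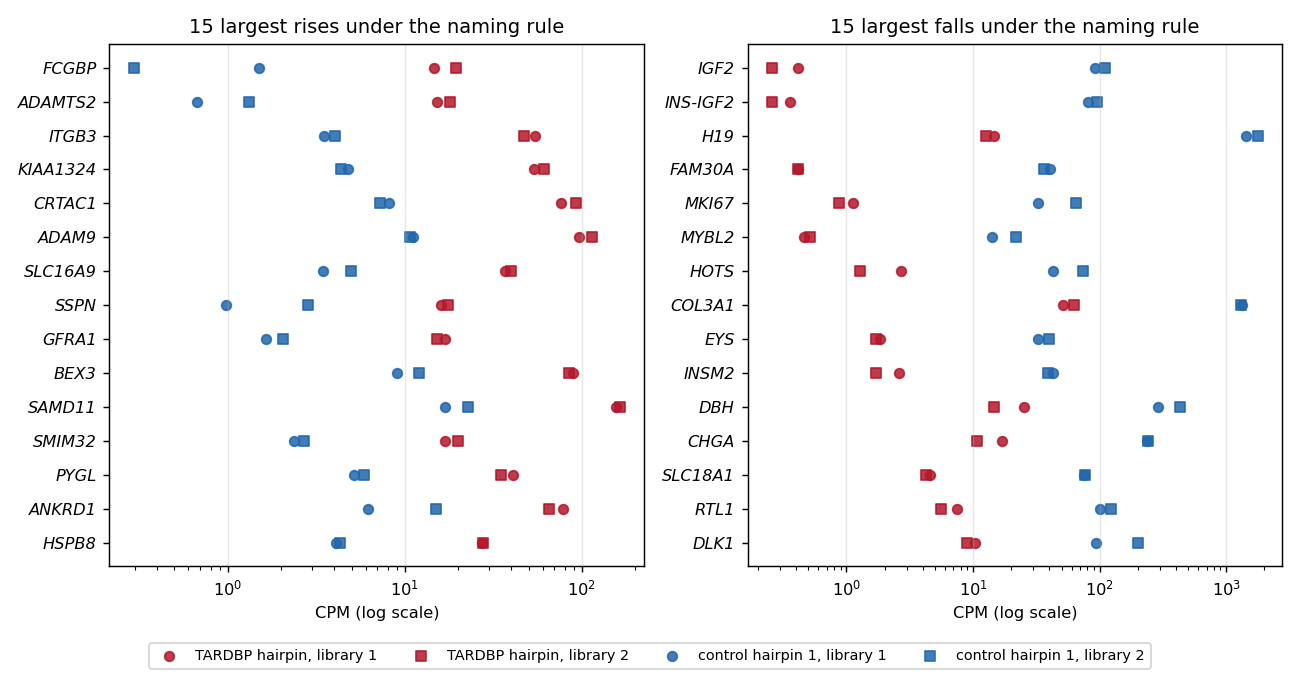
CPM on a log scale (horizontal axis) of the 15 called genes that rose most and the 15 that fell most, at a mean log2 CPM of 3 or more and without overlap between groups, 1 point per library (red, TARDBP hairpin; blue, control hairpin 1). By this choice no library of one hairpin lies within the range of the other. The 2 control libraries lie farthest apart for FCGBP, at 1.50 and 0.295 CPM.

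The 15 largest falls included fetal growth genes and genes of the secretory vesicle of chromaffin and sympathetic cells. IGF2, a fetal growth factor, was nearly absent with the TARDBP hairpin, at 0.411 and 0.257 CPM under the TARDBP hairpin, against 92.6 and 110.4 under control hairpin 1 (log2FC -8.22, SE 0.22, adjusted p = 5.75e-06). INS-IGF2, a readthrough gene that overlaps it, fell with it (-8.14), and reads of the pair cannot be told apart here. H19, the maternally expressed noncoding RNA of the same imprinted region, measured 14.6 and 12.7 CPM under the TARDBP hairpin, against 1436 and 1789 under control hairpin 1 (log2FC -6.88, SE 0.16, adjusted p = 5.75e-06), and HOTS, which overlaps it, fell by 4.88 on the log2 scale. Genes with overlap between groups could not enter the 15 largest falls. Among these 4, HOTS, at 2.67 and 1.29 against 43.0 and 73.6 CPM, had the widest spread by ratio within a hairpin. IGF2 and H19 were also lower with control hairpin 2 than with control hairpin 1, by log2 differences of -2.96 and -2.80, and the TARDBP hairpin stood at -5.24 and -4.06 against control hairpin 2. COL3A1, a fibrillar collagen, fell from 1337 and 1312 to 51.7 and 63.1 CPM (log2FC -4.53, SE 0.12, adjusted p = 5.75e-06) and stood at -4.80 against control hairpin 2. FAM30A, a noncoding RNA, and INSM2, a zinc finger factor of neuroendocrine cells, fell (log2FC -6.51 and -4.25), and stood at -2.90 and -2.72 against control hairpin 2. EYS, a secreted protein known from the retina, was the exception among the falls. It measured 1.85 and 1.70 against 32.5 and 39.7 CPM (-4.34), but control hairpin 2 was -3.73 from control hairpin 1 and the TARDBP hairpin only -0.59 from control hairpin 2. All 15 falls were called with any of the 4 libraries left out.

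**Figure D3:**
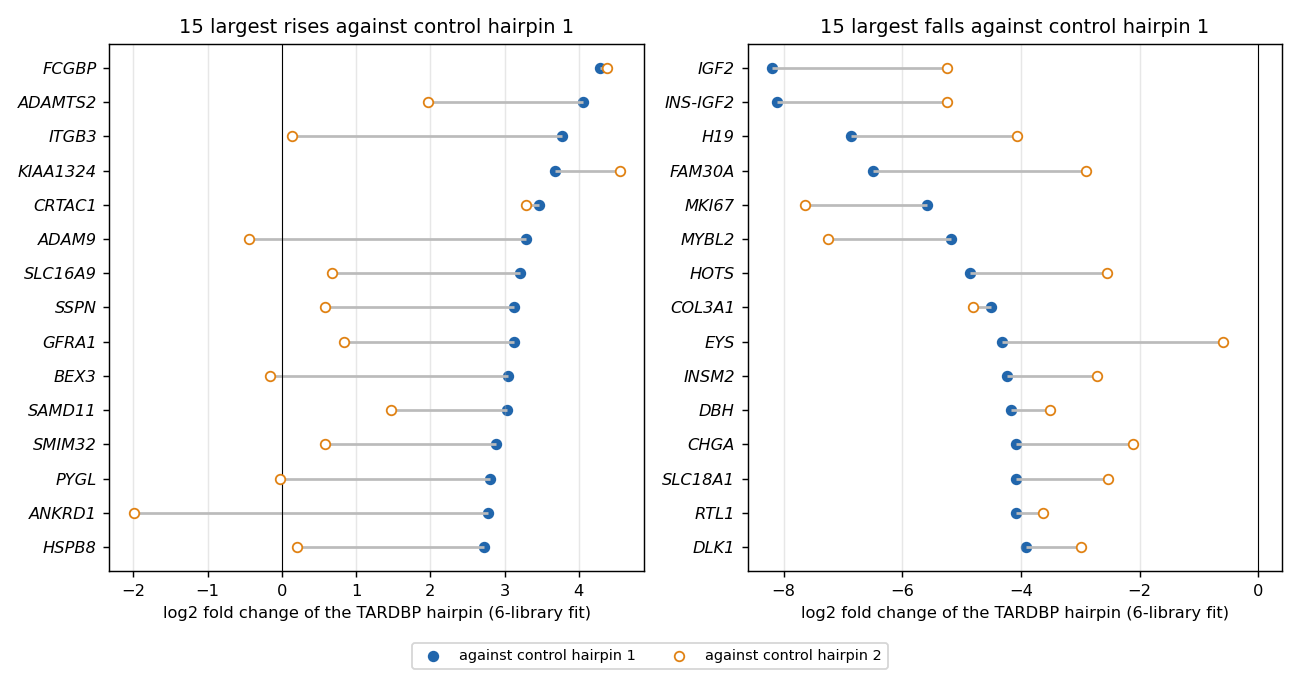
Log2 fold change of the TARDBP hairpin from the fit of all 6 libraries (horizontal axis) for the 15 largest rises and 15 largest falls, against control hairpin 1 (filled) and against control hairpin 2 (open). The 2 values share the TARDBP-hairpin libraries. FCGBP, CRTAC1, KIAA1324 and all falls but EYS lie far from 0 against either control, while ITGB3, BEX3 and PYGL lie near 0 against control hairpin 2.

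Genes of cell division fell more often than they rose. Dividing cells switch on DNA replication genes as they enter S phase, largely through E2F factors, and mitosis genes later, through B-MYB, FOXM1 and the DREAM complex, which binds the short CHR element. Of 46 tested genes of mitosis and the kinetochore 32 fell and 4 rose (median log2FC -1.34, against 0.0091 over all genes and subfamilies tested). MKI67, which coats mitotic chromosomes and is the usual proliferation marker, measured 1.13 and 0.874 CPM under the TARDBP hairpin, against 32.7 and 65.2 under control hairpin 1 (log2FC -5.60, SE 0.42, adjusted p = 1.17e-04). TOP2A, the topoisomerase of mitotic chromosomes, stood at 5.40 and 4.89 against 26.2 and 46.2 CPM (-2.81, SE 0.28), and SPC24, a subunit of the kinetochore's NDC80 complex, at 0.411 and 0.360 against 3.30 and 5.06 CPM (-3.42, SE 0.37). In these genes both TARDBP-hairpin libraries lay below both control libraries. The 4 that rose were ECT2, which starts the cleavage furrow (73.2 and 84.7 against 21.7 and 26.2 CPM, 1.72), the condensin subunits SMC2 (1.02) and SMC4 (0.44), and BUB3 of the spindle checkpoint (0.78). Relative to control hairpin 2, ECT2 stood at 0.063, and SMC2, SMC4 and BUB3 lay below it, at -0.39, -0.34 and -0.50. TOP2A and SPC24 stood at -4.99 and -5.82 against that control. In this list 1 rose and 18 fell without control library 1 and 3 rose and 13 fell without control library 2. In this group calls were lost without TARDBP library 2, control library 1 or control library 2 for SMC4 (adjusted p 0.0901 to 0.183) and without control library 1 for SMC2 and BUB3 (adjusted p 0.0529 to 0.0551).

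The promoters of these genes are shown because the group moved together. A RefSeq table (GRCh38.p14) held the 250 bases before to 50 bases after the start of 39 of the 46 tested mitosis genes. Both strands were searched for TTTGAA (the core of the CHR element) and CCAAT (the site of NF-Y). Matches of the 2 words can share a base, as the letters TTTGAATTGG in MKI67 do. TTTGAA was found in 30 of the 39, 76.9%, beside 15.4% of all 27305 promoters and 9.91% of the 11550 tested genes with one. It was in 22 of 29 mitosis genes that fell, 3 of 3 that rose and 5 of 7 not called. CCAAT was in 30 of 39, 76.9%, beside 36.4% of the tested genes. A match is a description of the letters only. The 150 bases before the start are printed below for MKI67, CKAP2L and DLGAP5, which fell, and for ECT2, which rose. CKAP2L and DLGAP5 (log2FC -5.04 and -4.11) are mitotic spindle proteins chosen after their values were seen. These are the 3 largest falls and the largest rise among mitosis genes with TTTGAA, on either strand, in the 250 bases before the start. A match to TTTGAA there was thus fixed by the choice. Capitals mark TTTGAA or CCAAT read on either strand (TTCAAA and ATTGG are the other strand's letters), and the gene's start follows the last base.
MKI67, chr10:128126424-128126573, minus strand: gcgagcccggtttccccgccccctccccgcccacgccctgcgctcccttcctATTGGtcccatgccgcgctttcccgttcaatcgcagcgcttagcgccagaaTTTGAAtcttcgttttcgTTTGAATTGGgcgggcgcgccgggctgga
CKAP2L, chr2:112764610-112764759, minus strand: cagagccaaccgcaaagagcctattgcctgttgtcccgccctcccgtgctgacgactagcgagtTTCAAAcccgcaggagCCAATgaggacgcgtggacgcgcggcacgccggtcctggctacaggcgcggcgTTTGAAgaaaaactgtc
DLGAP5, chr14:55191586-55191735, minus strand: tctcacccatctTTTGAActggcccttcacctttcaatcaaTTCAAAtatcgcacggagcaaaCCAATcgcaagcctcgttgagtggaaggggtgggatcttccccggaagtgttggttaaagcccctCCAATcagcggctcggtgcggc
ECT2, chr3:172750576-172750725, plus strand: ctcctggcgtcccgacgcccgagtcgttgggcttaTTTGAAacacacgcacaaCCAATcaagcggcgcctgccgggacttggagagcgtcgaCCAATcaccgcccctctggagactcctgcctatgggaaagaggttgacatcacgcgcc

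Drivers of the cycle moved the same way as the mitosis genes. Of 24 tested transcription factors and cyclin drivers 15 fell and 1 rose (median -1.18). MYBL2, the gene of B-MYB, measured 0.463 and 0.514 CPM under the TARDBP hairpin, against 14.2 and 21.9 under control hairpin 1 (log2FC -5.19, SE 0.33, adjusted p = 7.40e-05). CCND1, cyclin D1, stood at 452 and 456 against 1169 and 1119 CPM (-1.33, SE 0.080) and its partner kinase CDK6 at 106 and 110.5 against 347 and 436 CPM (-1.85, SE 0.12). TFDP1, the dimer partner of E2F factors, fell by 1.65 from 40.5 and 41.4 to 12.4 and 13.7 CPM. CDK6, CCND1 and TFDP1 differed little between the control hairpins (0.23, -0.035 and 0.25), whereas MKI67 and MYBL2 were 2.06 and 2.08 higher with control hairpin 2, so that their distance from that control was wider, -7.64 and -7.26. CDK2 was the member that rose (0.47). In the list of drivers 0 rose and 7 fell without control library 1 and 0 rose and 5 fell without control library 2. In bulk RNA, fewer dividing cells and less of these RNAs per cell cannot be told apart. Among the genes just named, calls were lost without control library 1 or control library 2 for CDK2 (adjusted p 0.0813 to 0.146).

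DNA replication was divided. Of 41 tested members 17 fell and 4 rose (median -0.35). The largest named falls were in factors that assemble and start the replicative helicase. MCM10 measured 0.771 and 0.669 CPM under the TARDBP hairpin, against 10.2 and 14.5 under control hairpin 1 (log2FC -4.09, SE 0.29, adjusted p = 9.71e-05), CDC45 0.309 and 0.309 against 4.23 and 4.87 CPM (-3.86), and GINS2 0.360 and 0.309 against 5.11 and 7.13 CPM (-4.17). CLSPN, the mediator of the replication checkpoint, stood at 6.33 and 7.20 against 22.4 and 21.4 CPM (-1.70). The 4 that rose did so by less, MCM7 of the helicase ring by 0.54, the ligase LIG1 by 0.47, the polymerase subunit POLD1 by 0.40 and thymidylate synthase, TYMS, by 0.37. Relative to control hairpin 2, MCM7 and POLD1 were lower, at -1.20 and -0.38, and LIG1 and TYMS higher, at 0.37 and 0.45. The falls MCM10, CDC45, GINS2 and CLSPN stood at -5.61, -5.53, -5.41 and -2.62 against that control. Over the list 0 rose and 7 fell without control library 1 and 0 rose and 7 fell without control library 2. TTTGAA was in 1 of 37 promoters of this list, and any of the E2F-type words TTTGGCGC, TTTCCCGC and TTTGCGCG in 19 of them, 51.4%, beside 2.72% of all promoters and 4.34% of those of tested genes. Those words were in 6 of 15 members that fell, 3 of 4 that rose and 10 of 18 not called. Of the calls above, some were lost without TARDBP library 1, control library 1 or control library 2 for POLD1 (adjusted p 0.103 to 0.201), without TARDBP library 2, control library 1 or control library 2 for TYMS (adjusted p 0.133 to 0.219), and also without control library 1 or control library 2 for MCM7 and LIG1 (adjusted p 0.101 to 0.169).

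Repair by homologous recombination and the Fanconi pathway showed 12 falls and 8 rises among 31 tested genes (median -0.26). EXO1, an exonuclease that resects broken ends, measured 4.68 and 4.83 against 16.4 and 19.3 CPM (log2FC -1.91, SE 0.16, adjusted p = 1.87e-04), and XRCC2, a recombination factor, 1.75 and 1.18 against 8.46 and 10.2 CPM (-2.67). FANCD2, the protein the Fanconi pathway marks with ubiquitin, fell by 1.63, and BRCA1 by 1.43. Here 5 rose and 11 fell without TARDBP library 1, 5 rose and 13 fell without TARDBP library 2, 0 rose and 5 fell without control library 1 and 0 rose and 7 fell without control library 2. Among 58 tested replication-dependent histone genes, whose RNAs lack the usual poly(A) tail and are made in S phase, 6 fell and 3 rose. HIST2H2BE, which also makes a polyadenylated RNA, measured 15.4 and 12.8 against 54.3 and 70.6 CPM (-2.15), HIST1H3G 0.463 and 0.309 against 2.68 and 10.2 CPM (-4.05) and HIST1H4C, in the other direction, 54.0 and 35.6 against 14.6 and 29.2 CPM (1.03). The libraries of 1 hairpin differed widely for HIST1H3G and HIST1H4C, and the histone counts changed with single libraries: 3 rose and 19 fell without TARDBP library 1, 15 rose and 8 fell without TARDBP library 2, 0 rose and 3 fell without control library 1 and 0 rose and 2 fell without control library 2. Against control hairpin 2, HIST2H2BE, HIST1H3G and HIST1H4C stood at -2.48, -6.90 and -1.35. Histone genes are near-identical copies and reads may be shared between them. Some of these calls were lost without control library 1 for BRCA1 (adjusted p = 0.0557) and without control library 1 or control library 2 for HIST1H4C (adjusted p 0.0800 to 0.280).

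Targets of p53 rose more often than they fell. The p53 protein answers DNA damage and other stress by switching on genes that stop the cycle, repair DNA or lead to cell death. Of 37 tested targets 18 rose, 48.6%, and 5 fell (median 0.28). CDKN1A, the p21 inhibitor of cyclin-dependent kinases, measured 1444 and 1612 CPM under the TARDBP hairpin, against 631 and 693 under control hairpin 1 (log2FC 1.21, SE 0.094, adjusted p = 1.34e-04), and control hairpin 2 differed from control hairpin 1 by 0.039 (adjusted p = 0.770). CCNG1, cyclin G1, stood at 225 and 209.7 against 36.5 and 43.8 CPM (2.44, SE 0.12), ZMAT3, an RNA-binding zinc finger protein, at 638 and 642 against 250.1 and 269 CPM (1.30, SE 0.086), and SPATA18, a mitochondrial quality control protein, at 45.1 and 51.0 against 15.7 and 15.5 CPM (1.62, SE 0.12). ABCA12, a lipid transporter, measured 70.7 and 65.9 against 12.8 and 17.5 CPM (2.17, SE 0.15). In all 5 genes both TARDBP-hairpin libraries lay above both control libraries, and they were also higher than with control hairpin 2, by 1.19, 1.47, 1.61, 1.59 and 2.01.

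The 5 p53 targets that fell included APAF1, the scaffold of the apoptosome (-0.58), and TRIAP1, an inhibitor of the apoptosome (-0.88). The others were BBC3 and PMAIP1, which encode the BH3-only killers PUMA and NOXA (-0.53 and -0.49), and TP53INP1 (-0.50). Against control hairpin 2, APAF1, PMAIP1 and TRIAP1 were also lower, at -0.50, -1.48 and -0.87. BBC3 stood at -0.074 against that control, and TP53INP1 lay above it, at 1.20. Over all p53 targets 7 rose and 0 fell without control library 1 and 10 rose and 1 fell without control library 2. Of 22 tested genes of the BCL2 family and apoptosis 9 fell and 3 rose (median -0.30). DIABLO, which frees caspases from their inhibitors, measured 31.4 and 28.9 against 60.0 and 58.4 CPM (-0.97). BCL2 itself, which blocks the mitochondrial death step, measured 81.7 and 65.9 against 28.7 and 33.9 CPM (1.23). BIRC2 and BID rose by 0.39 and 0.37. DIABLO and BCL2 stood at -0.66 and 0.50 against control hairpin 2, and BIRC2 and BID at -0.093 and -0.65. Among apoptosis genes 1 rose and 10 fell without TARDBP library 2, 0 rose and 0 fell without control library 1 and 0 rose and 2 fell without control library 2. Calls among them were lost without TARDBP library 1, TARDBP library 2, control library 1 or control library 2 for BID (adjusted p 0.0898 to 0.162), without TARDBP library 2, control library 1 or control library 2 for PMAIP1 and BIRC2 (adjusted p 0.112 to 0.244), and also without control library 1 for TRIAP1 and DIABLO (adjusted p 0.0514 to 0.0545), and without control library 1 or control library 2 for APAF1, BBC3, TP53INP1 and BCL2 (adjusted p 0.0514 to 0.145).

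Cell-cycle inhibitors were mixed, with 3 rises and 4 falls among 11 tested. Besides CDKN1A, WEE1, the kinase that holds back mitosis, measured 42.7 and 38.3 against 20.7 and 21.1 CPM (0.95) and CDKN1B, p27, 44.4 and 47.0 against 35.5 and 33.9 CPM (0.40). CDKN1C, the imprinted p57 gene, stood at 5.66 and 6.27 against 15.2 and 17.4 CPM (-1.45). CDKN2D (-1.10), PKMYT1 (-1.75) and RBL2 (-0.56) also fell. Relative to control hairpin 2, WEE1 and CDKN1B stood at -0.44 and 0.18. CDKN1C, CDKN2D, PKMYT1 and RBL2 stood at -0.20, -0.31, -3.65 and 0.020 against that control. Over the list 1 rose and 1 fell without control library 1 and 1 rose and 1 fell without control library 2. Of 25 tested secreted and structural genes linked to senescence 10 rose and 6 fell (median 0.36). PLAT, tissue plasminogen activator, measured 43.4 and 47.9 against 10.2 and 11.4 CPM (2.08), while MMP2, a gelatinase, stood at 161 and 148 against 395 and 443 CPM (-1.44) and VEGFA, the vascular growth factor, at 24.9 and 32.0 against 80.4 and 69.4 CPM (-1.40). In the senescence list 4 rose and 2 fell without control library 1 and 8 rose and 3 fell without control library 2. The following calls were lost without TARDBP library 2, control library 1 or control library 2 for CDKN1B (adjusted p 0.0611 to 0.119), without control library 1 for VEGFA (adjusted p = 0.0594), and also without control library 1 or control library 2 for WEE1, CDKN2D, PKMYT1 and RBL2 (adjusted p 0.0510 to 0.230).

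Genes of noradrenergic identity and of the secretory vesicle fell more often than they rose. Sympathetic cells make noradrenaline from tyrosine through tyrosine hydroxylase, aromatic amino acid decarboxylase and dopamine beta-hydroxylase, load it into vesicles packed with granins, and take it back up through a membrane transporter. Of 15 tested genes of catecholamine synthesis, storage and breakdown 7 fell and 2 rose (median -0.39). DBH, dopamine beta-hydroxylase, measured 25.4 and 14.6 CPM under the TARDBP hairpin, against 292 and 432 under control hairpin 1 (log2FC -4.18, SE 0.29, adjusted p = 9.39e-05). SLC18A1, the vesicular monoamine transporter, stood at 4.58 and 4.27 against 74.9 and 77.0 CPM (-4.10, SE 0.12), CYB561, which hands electrons to DBH inside the vesicle, at 49.4 and 47.0 against 262 and 282 CPM (-2.50, SE 0.10), and SLC6A2, the noradrenaline transporter, at 77.5 and 66.4 against 157 and 169 CPM (-1.18, SE 0.11). No library of either hairpin overlapped the other hairpin's for these genes. Against control hairpin 2 they stood at -3.51, -2.54, -1.73 and -1.32. MAOB, a monoamine oxidase, and PNMT, which makes adrenaline, rose by 0.75 and 1.36. MAOB lay below control hairpin 2, at -0.66, and PNMT above it, at 1.67. PNMT measured under 1 CPM in all 4 libraries. In this list 0 rose and 8 fell without TARDBP library 1, 1 rose and 7 fell without TARDBP library 2, 0 rose and 5 fell without control library 1 and 0 rose and 6 fell without control library 2. Calls were lost without TARDBP library 1, TARDBP library 2, control library 1 or control library 2 for PNMT (adjusted p 0.113 to 0.200) and without TARDBP library 1, control library 1 or control library 2 for MAOB (adjusted p 0.0561 to 0.111).

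Granins, neuropeptides and the enzymes that process them showed 9 falls and 2 rises among 13 tested genes (median -1.49). CHGA, chromogranin A, measured 17.0 and 10.7 CPM under the TARDBP hairpin, against 235 and 242 under control hairpin 1 (log2FC -4.11, SE 0.20, adjusted p = 3.34e-05), and CHGB, chromogranin B, 23.4 and 21.5 against 163 and 155 CPM (-2.82, SE 0.10). GAL, the neuropeptide galanin, stood at 5.30 and 3.70 against 28.9 and 39.0 CPM (-2.92) and CPE, the carboxypeptidase that finishes peptide hormones, at 61.2 and 64.0 against 157 and 148 CPM (-1.29). CHGA and CHGB were also lower with control hairpin 2 than with control hairpin 1, by -1.97 and -1.11, and lower again with the TARDBP hairpin, by -2.12 and -1.69 against control hairpin 2. NPY, neuropeptide Y, went the other way at 155 and 137 against 43.4 and 76.5 CPM (1.28), though it was lower than with control hairpin 2 (-1.28). SCG5, a chaperone of prohormone convertase, rose by 0.75 and lay below control hairpin 2, at -0.52. Over the granin list 0 rose and 5 fell without control library 1 and 1 rose and 7 fell without control library 2. In this group calls were lost without control library 1 for NPY (adjusted p = 0.0566) and without control library 1 or control library 2 for SCG5 (adjusted p 0.0641 to 0.0672).

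The transcription factors that set this identity also fell more often than they rose. Of 25 tested noradrenergic core factors 12 fell and 6 rose (median -0.40). HAND2 measured 354 and 343 CPM under the TARDBP hairpin, against 584 and 609 under control hairpin 1 (log2FC -0.77, SE 0.083, adjusted p = 4.55e-04), MEIS2 152 and 156 against 300.4 and 266 CPM (-0.88), and KLF13 31.8 and 24.8 against 177 and 174 CPM (-2.63). PHOX2A, a homeobox factor of the sympathetic lineage given after its values were seen, stood at 100.2 and 85.7 against 169 and 211 CPM (log2FC -1.03, SE 0.13, adjusted p = 0.00108). Against control hairpin 2 HAND2 and MEIS2 differed by only -0.37 and -0.16, and KLF13 by -1.54. Here 0 rose and 5 fell without control library 1 and 0 rose and 7 fell without control library 2. Factors of the mesenchymal state moved the other way, with 11 rises and 0 falls among 22 tested (median 0.51). YAP1, the coactivator of the Hippo pathway, measured 39.8 and 44.5 against 14.4 and 13.5 CPM (log2FC 1.60, SE 0.12, adjusted p = 1.21e-04), RUNX1 24.0 and 24.1 against 8.93 and 11.1 CPM (1.27), the receptor NOTCH2 216 and 227 against 127 and 141 CPM (0.73) and GLIS3, a zinc finger factor, 20.5 and 17.8 against 9.55 and 8.65 CPM (1.07). These 4 were also higher with control hairpin 2 than with control hairpin 1, by 1.10, 1.79, 1.10 and 1.48, and RUNX1, NOTCH2 and GLIS3 stood below control hairpin 2, at -0.50, -0.35 and -0.38. Among mesenchymal factors 1 rose and 0 fell without control library 1 and 4 rose and 0 fell without control library 2. Among the genes just named, calls were lost without control library 1 for RUNX1 and NOTCH2 (adjusted p 0.0502 to 0.0562) and without control library 1 or control library 2 for PHOX2A and GLIS3 (adjusted p 0.0509 to 0.0600).

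The labelled cell line was checked against 12 markers of noradrenergic neuroblastoma. 11 of them had enough counts to be tested, and they summed to 1065 and 952 CPM under the TARDBP hairpin, against 2622 and 2773 under control hairpin 1. TH, tyrosine hydroxylase, had 0 and 0 counts under the TARDBP hairpin, against 1 and 3 under control hairpin 1. The first enzyme of noradrenaline synthesis was thus near 0 in all 4 libraries, while DBH was present. Of the markers of other cell types, 2 of 10 for Schwann cells and glial precursors could be tested, 1 of 10 for blood and 1 of 8 for endothelium. These lists summed to at most 10.4 CPM in any of the 4 libraries. VWF, von Willebrand factor, was the one member called in them (0.0514 and 0.206 against 0.929 and 0.934 CPM, -2.80). Epithelial markers summed to 41.3 and 35.7 CPM under the TARDBP hairpin, against 18.2 and 23.5 under control hairpin 1, with KRT8, KRT18 and EPCAM higher by 1.68, 1.28 and 2.68 and CLDN4 and KRT19 lower (log2FC -1.38 and -2.35). Without library 1 of control hairpin 1, 0 of these 5 genes rose and 1 fell, and without library 2 0 were called. Fibroblast markers summed to 523 and 452 CPM under the TARDBP hairpin, against 1581 and 1659 under control hairpin 1. This fall in the sum came from COL3A1, at 51.7 and 63.1 against 1337 and 1312 CPM, and hid rises in other members. TAGLN rose, at 232 and 162 against 33.7 and 75.0 CPM. DCN, at 6.22 and 8.23 against 0.619 and 1.13 CPM, and COL6A3, at 1.95 and 2.88 against 0.258 and 0.590 CPM, rose as well. 3 of 11 tested rose and 5 fell, and 0 rose and 3 fell without control library 1 and 2 rose and 2 fell without control library 2. The part of other cell types in the results was not tested. Of the calls above, some were lost without control library 1 or control library 2 for VWF, KRT8, KRT18, EPCAM and CLDN4 (adjusted p 0.0574 to 0.142) and without control library 2 for KRT19 (adjusted p = 0.0611).

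Genes of axon growth, the synapse and excitability fell more often than they rose. Of 53 tested genes of axon growth and the growth cone 29 fell, 54.7%, and 9 rose (median -0.62). STMN2, a tubulin-binding protein of the growth cone and a known cryptic-exon target of TDP-43, measured 154 and 129.5 CPM under the TARDBP hairpin, against 759 and 717 under control hairpin 1 (log2FC -2.38, SE 0.11, adjusted p = 3.29e-05). BASP1, a growth cone membrane protein, stood at 4.42 and 3.96 against 38.4 and 34.3 CPM (-3.12, SE 0.15), DPYSL5, a collapsin response mediator, at 21.2 and 16.2 against 146 and 140.1 CPM (-2.93, SE 0.14), and STMN4, a relative of STMN2, at 6.63 and 5.91 against 55.4 and 46.2 CPM (-3.02, SE 0.15). Both TARDBP-hairpin libraries lay well below both controls in each. STMN2 was -0.81 from control hairpin 1 in control hairpin 2 (adjusted p = 6.37e-04), and the TARDBP hairpin stood at -1.55 against control hairpin 2. For BASP1 and DPYSL5 the control hairpins differed by 0.11 and -0.29, with the TARDBP hairpin at -3.20 and -2.63 against the other control. In the axon list 0 rose and 8 fell without control library 1 and 2 rose and 12 fell without control library 2.

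Of 44 tested genes of synaptic vesicles and release 22 fell and 4 rose (median -0.44). SYP, synaptophysin, measured 6.89 and 6.12 CPM under the TARDBP hairpin, against 39.2 and 37.7 under control hairpin 1 (log2FC -2.56, SE 0.13, adjusted p = 3.67e-05), SYT5, a calcium sensor of dense-core vesicles, 4.73 and 3.70 against 24.8 and 23.6 CPM (-2.52), and RPH3A, a RAB3 effector, 9.67 and 8.28 against 31.4 and 34.1 CPM (-1.87). The 4 that rose were DNM3, a dynamin (29.2 and 30.5 against 5.47 and 4.87 CPM, 2.53), NLGN1, neuroligin 1 (26.0 and 26.6 against 7.74 and 8.90 CPM, 1.66), DOC2A, a calcium sensor (6.33 and 11.6 against 2.73 and 1.67 CPM, 2.03), and NRXN3, neurexin 3 (5.97 and 5.14 against 2.06 and 2.61 CPM, 1.25). DNM3 and NLGN1 stood above control hairpin 2 as well, by 1.69 and 1.00, and SYP and RPH3A below it, at -1.69 and -1.88. SYT5 was -2.06 in control hairpin 2 relative to control hairpin 1, which left the TARDBP hairpin -0.44 from control hairpin 2. DOC2A stood at 1.29 against control hairpin 2, and NRXN3 lay below it, at -1.45. Among synaptic genes 2 rose and 8 fell without control library 1 and 2 rose and 11 fell without control library 2. Some of these calls were lost without control library 1 or control library 2 for DOC2A and NRXN3 (adjusted p 0.0597 to 0.132).

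Of 40 tested ion channels and transmitter receptors 18 fell and 5 rose (median -0.34). CHRNA3, the nicotinic subunit of sympathetic ganglia, measured 123 and 131 CPM under the TARDBP hairpin, against 538 and 497 under control hairpin 1 (log2FC -2.03, SE 0.094, adjusted p = 3.30e-05), but control hairpin 2 was -1.85 from control hairpin 1 and the TARDBP hairpin only -0.16 from control hairpin 2. KCNQ5, a potassium channel subunit, moved the other way, at 23.4 and 23.6 against 6.19 and 6.54 CPM (1.88). CHRM2, a muscarinic receptor, fell by 1.57. GRIA4, GRIN1, CACNA1C and KCNMA1 also rose, by 2.08, 1.20, 0.75 and 0.63. Relative to control hairpin 2, GRIA4 and CACNA1C stood at 0.071 and 0.036, and GRIN1 and KCNMA1 lay below it, at -0.99 and -0.80. KCNQ5 and CHRM2 stood at 0.46 and -0.58 against that control. Here 1 rose and 4 fell without control library 1 and 1 rose and 6 fell without control library 2. Protocadherins, adhesion proteins whose clustered members give neurons distinct surfaces, showed 28 falls and 8 rises among 65 tested genes (median -0.46). PCDHGC3 measured 28.6 and 24.5 against 67.1 and 68.4 CPM (-1.35) and PCDH10, which lies outside the clusters, 2.11 and 2.06 against 7.95 and 8.26 CPM (-1.96). Clustered protocadherins share exons, so reads may be shared between them, and 0 rose and 2 fell without control library 1 and 2 rose and 7 fell without control library 2. Calls among them were lost without TARDBP library 1, control library 1 or control library 2 for GRIN1 (adjusted p 0.0668 to 0.154) and without control library 1 or control library 2 for GRIA4, CACNA1C and KCNMA1 (adjusted p 0.0575 to 0.143).

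**Figure D4:**
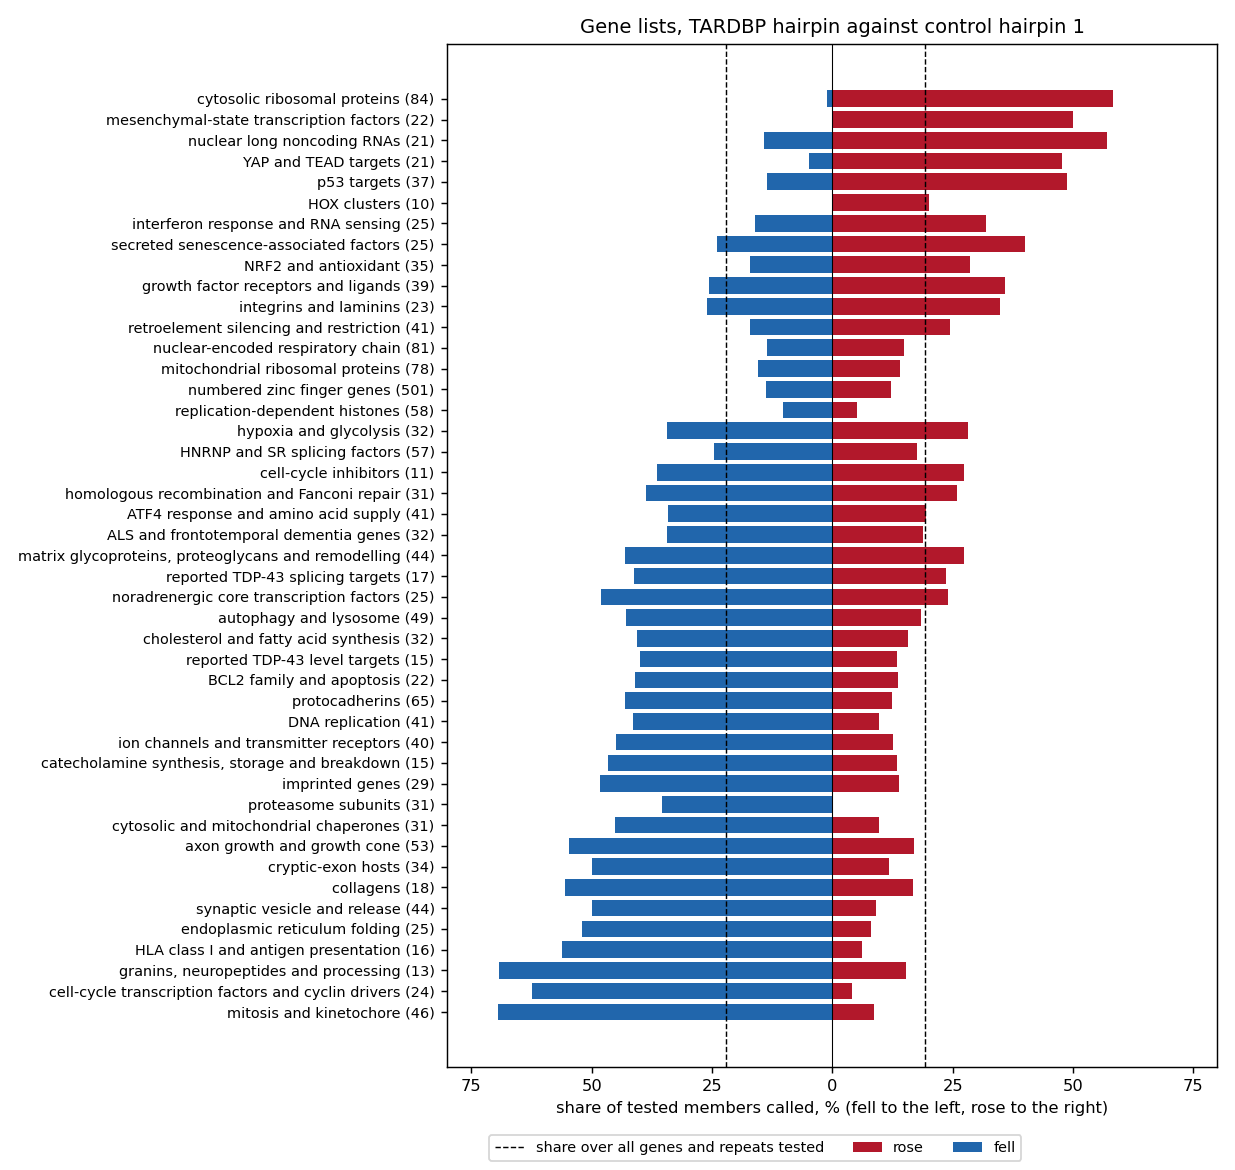
Share of the tested members of each gene list that rose (red, to the right) or fell (blue, to the left), in percent, with the number tested in parentheses. Dashed lines mark the shares over all genes and repeat subfamilies tested, 19.3% for rises and 22.1% for falls, and lists are sorted by rises minus falls from ribosomal proteins at the top to mitosis at the bottom.

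Imprinted genes, expressed from 1 parental copy and known for roles in fetal growth, fell more often than they rose, 14 against 4 of 29 tested (median -0.46). IGF2 and H19 are described above. DLK1, a membrane ligand of the Notch family, and RTL1, a retrotransposon-derived gene beside it, measured 10.4 and 8.90 against 94.3 and 201 CPM (log2FC -3.93, SE 0.35, adjusted p = 2.35e-04) and 7.46 and 5.55 against 101 and 122 CPM (-4.10). PEG10, a retrotransposon-derived gene of another imprinted region, stood at 13.4 and 14.0 CPM under the TARDBP hairpin, against 157 and 174 under control hairpin 1 (log2FC -3.59, SE 0.11, adjusted p = 8.76e-06). The control hairpins also differed for PEG10, with 2.14 more in control hairpin 2, and the TARDBP hairpin stood at -5.71 against it. SNRPN (37.7 and 38.6 against 11.2 and 10.4 CPM, 1.82), MEST (16.8 and 22.6 against 1.75 and 5.75 CPM, 2.38), PHLDA2 (1.54) and PEG3 (0.45) rose. SNRPN and MEST were as high or higher with control hairpin 2, at 0.076 and -2.02 for the TARDBP hairpin against it. PHLDA2 and PEG3 stood at -1.58 and 0.72 against that control. In the imprinted list 1 rose and 6 fell without control library 1 and 2 rose and 9 fell without control library 2. Counts per gene do not show which parental copy was read. The following calls were lost without TARDBP library 1, control library 1 or control library 2 for PHLDA2 (adjusted p 0.0795 to 0.201), without TARDBP library 2, control library 1 or control library 2 for PEG3 (adjusted p 0.0628 to 0.227), and also without control library 1 for MEST (adjusted p = 0.0629).

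Genes reported as direct TDP-43 targets moved in both directions. A cryptic exon spliced into a messenger RNA often brings a stop codon or an early end, so the gene's total can fall, although counts per gene do not show the exon itself. Of 34 tested cryptic-exon hosts 17 fell and 4 rose (median -0.40). Besides STMN2, INSR, the insulin receptor, measured 17.7 and 14.5 CPM under the TARDBP hairpin, against 79.7 and 68.1 under control hairpin 1 (log2FC -2.20, SE 0.14, adjusted p = 7.58e-05) and PXDN, a peroxidase of the basement membrane, 289.8 and 300.2 against 853 and 793 CPM (-1.48). ELAVL3, a neuronal RNA-binding protein, stood at 19.2 and 11.9 against 95.9 and 89.0 CPM (-2.57), and UNC13A, a vesicle priming factor chosen after its value was seen, at 20.6 and 16.6 against 105 and 78.8 CPM (-2.30). The rises were small, 0.87 for ACSF2, 0.72 for MRPL45, 0.51 for TRAPPC12 and 0.40 for CYFIP2. PXDN stood at -1.27 against control hairpin 2, with the controls -0.19 apart, while INSR was -1.38 between controls. Over the hosts 0 rose and 5 fell without control library 1 and 0 rose and 8 fell without control library 2. This list names genes found in several cell types, and several of its members also sit in the synapse and channel lists. Calls were lost without TARDBP library 1, control library 1 or control library 2 for TRAPPC12 and CYFIP2 (adjusted p 0.0501 to 0.182), without control library 1 for ELAVL3 (adjusted p = 0.0535), and also without control library 1 or control library 2 for ACSF2 and MRPL45 (adjusted p 0.0552 to 0.0663).

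Of 17 tested genes with a reported TDP-43 splicing change 7 fell and 4 rose (median -0.20). MADD, a RAB3 exchange factor, measured 35.3 and 34.9 against 107 and 88.4 CPM (log2FC -1.47, SE 0.12, adjusted p = 1.57e-04), SORT1, the progranulin receptor sortilin, 61.8 and 59.6 against 131 and 116 CPM (-1.02) and MEF2D, a transcription factor, 31.4 and 30.8 against 73.0 and 66.7 CPM (-1.17). TNIK, PPFIBP1, FNIP1 and KIF3A rose, by 1.24, 1.00, 0.63 and 0.52. TNIK lay below control hairpin 2, at -0.64, and PPFIBP1, FNIP1 and KIF3A above it, at 0.94, 0.97 and 0.59. Of 15 genes whose level was reported to depend on TDP-43 6 fell and 2 rose. SREBF2, the master factor of cholesterol synthesis, measured 20.1 and 15.9 against 54.7 and 49.2 CPM (-1.53), and VPS4B, an ATPase of membrane scission, 42.4 and 44.0 against 20.7 and 21.2 CPM (1.04). VPS4B stood only 0.058 above control hairpin 2. In the splicing list 0 rose and 3 fell without control library 1 and 0 rose and 4 fell without control library 2, and in the level list 1 rose and 1 fell without control library 1 and 1 rose and 2 fell without control library 2. In this group calls were lost without control library 1 for SREBF2 (adjusted p = 0.0539) and without control library 1 or control library 2 for TNIK, PPFIBP1, FNIP1 and KIF3A (adjusted p 0.0515 to 0.105).

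Of 32 tested genes linked to ALS or frontotemporal dementia 11 fell and 6 rose (median -0.12). DCTN1, a subunit of the dynein cofactor dynactin, measured 71.1 and 69.9 against 169.5 and 152 CPM (log2FC -1.19, SE 0.10, adjusted p = 1.62e-04), and TMEM106B, a lysosomal membrane protein, 113 and 117 against 60.9 and 58.3 CPM (0.95). FIG4, a phosphoinositide phosphatase, rose by 1.10. Here 3 rose and 10 fell without TARDBP library 1, 1 rose and 1 fell without control library 1 and 2 rose and 3 fell without control library 2. Among 57 tested HNRNP, SR and related splicing factors 14 fell and 10 rose (median -0.14), shares of 24.6% and 17.5% that lie near the background. ELAVL4, a neuronal RNA-binding protein, measured 149 and 137 against 342 and 336 CPM (-1.25), QKI 58.1 and 63.3 against 112 and 119 CPM (-0.93), and MBNL3, a muscleblind protein, 18.5 and 20.8 against 5.32 and 7.18 CPM (1.65). Among splicing factors 0 rose and 2 fell without control library 1 and 2 rose and 6 fell without control library 2. Among the genes just named, calls were lost without control library 1 for FIG4 and MBNL3 (adjusted p 0.0509 to 0.0514).

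The extracellular matrix and its receptors changed in both directions. Of 18 tested collagens 10 fell and 3 rose (median -1.07). COL5A1 measured 66.1 and 76.3 against 218 and 257 CPM (log2FC -1.74, SE 0.12, adjusted p = 9.53e-05), COL6A1 39.8 and 42.1 against 110.2 and 109 CPM (-1.42), and COL11A1 9.77 and 9.41 against 31.4 and 30.6 CPM (-1.69), the first and last fibrillar collagens and the second a collagen of beaded filaments. COL7A1, the anchoring fibril collagen, COL27A1 and COL6A3 rose, by 1.26, 1.31 and 2.48. Among collagens 5 rose and 10 fell without TARDBP library 1, 0 rose and 6 fell without control library 1 and 0 rose and 6 fell without control library 2. SPARC, a collagen-binding glycoprotein, stood at 57.6 and 54.3 CPM under the TARDBP hairpin, against 277 and 269 under control hairpin 1 (log2FC -2.29, SE 0.093, adjusted p = 2.22e-05), ADAMTS9, a protease of proteoglycans, at 52.2 and 58.3 against 233 and 291 CPM (-2.25), and VCAN, the large proteoglycan versican, at 754 and 880.1 against 244 and 219 CPM (1.82) in the other direction. Of 44 tested matrix glycoproteins, proteoglycans and remodelling enzymes 19 fell and 12 rose, and 4 rose and 8 fell without control library 1 and 7 rose and 9 fell without control library 2. COL5A1 and SPARC were higher with control hairpin 2 than with control hairpin 1 (0.98 and 1.25), and the TARDBP hairpin stood at -2.70 and -3.51 against it. COL6A1, COL11A1 and ADAMTS9 stood at -1.07, -2.84 and -3.08. Of the rises, COL7A1, COL27A1 and VCAN stood 0.16, 0.26 and 0.34 above control hairpin 2. COL6A3 was 5.00 higher in control hairpin 2 than in control hairpin 1, and the TARDBP hairpin lay below control hairpin 2, at -2.50. Of the calls above, some were lost without control library 1 or control library 2 for COL7A1, COL27A1 and COL6A3 (adjusted p 0.0502 to 0.0883).

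Integrins, the matrix receptors, split by subunit. Of 23 tested integrins and laminins 8 rose and 6 fell (median 0.33). ITGAV, the alpha chain that pairs with ITGB3, measured 247 and 255 CPM under the TARDBP hairpin, against 66.3 and 70.0 under control hairpin 1 (log2FC 1.88, SE 0.092, adjusted p = 3.34e-05) and ITGA4, an alpha chain of fibronectin receptors, 45.4 and 51.5 against 13.7 and 14.8 CPM (1.76), while ITGA3, a laminin receptor chain, stood at 58.0 and 56.6 against 150.2 and 147 CPM (-1.38). ITGAV and ITGA4 were near control hairpin 2 (0.19 and 0.40), and ITGA3 was -2.40 from it. Over this list 4 rose and 2 fell without control library 1 and 6 rose and 3 fell without control library 2. Of 21 tested targets of YAP and TEAD, which respond to adhesion and cell shape, 10 rose and 1 fell, AMOTL1 (-0.72). CYR61 measured 67.7 and 69.2 against 9.13 and 15.1 CPM (log2FC 2.49, SE 0.21, adjusted p = 1.73e-04), CTGF 9.46 and 8.13 against 0.671 and 1.52 CPM (2.99), PTPN14, a phosphatase that restrains YAP, 109 and 122 against 20.8 and 23.0 CPM (2.40), and GADD45B 5.71 and 6.94 against 0.929 and 0.639 CPM (3.01). CYR61 and CTGF, secreted matricellular proteins, were 3.23 and 6.26 higher with control hairpin 2 than with control hairpin 1, and with the TARDBP hairpin they lay below control hairpin 2, at -0.72 and -3.25. ANKRD1, CYR61 and CTGF thus lay above one control and below the other. PTPN14 and GADD45B stood 0.19 and 0.39 above control hairpin 2, which was itself 2.23 and 2.64 above control hairpin 1. Among YAP targets 10 rose and 2 fell without TARDBP library 1 and 6 rose and 0 fell without control library 1. Of 39 tested growth factor genes 14 rose and 10 fell, with PDGFRA, a receptor for platelet-derived growth factor, at 112 and 141 against 28.2 and 26.3 CPM (2.21) and 1.50 against control hairpin 2. Among growth factor genes 4 rose and 4 fell without control library 1 and 4 rose and 6 fell without control library 2. Some of these calls were lost without control library 1 for AMOTL1 (adjusted p = 0.0603).

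Cytosolic ribosomal protein genes rose more often than they fell. Of 84 tested 49 rose, 58.3%, and 1 fell, RPL23 (262 and 238 against 339.8 and 386 CPM, -0.54). The list's median was 0.44. A few stood apart from the rest. RPL34 measured 263 and 249 CPM under the TARDBP hairpin, against 49.2 and 64.4 under control hairpin 1 (log2FC 2.17, SE 0.14, adjusted p = 7.40e-05), RPS25 472 and 411 against 131 and 187 CPM (1.47) and RPS15 282 and 202 against 61.6 and 104 CPM (1.55). Control hairpin 2 was 2.06, 1.33 and 1.80 above control hairpin 1 in these 3 genes, and the TARDBP hairpin stood 0.13, 0.16 and -0.23 from control hairpin 2. This list's count depended on single libraries, with 27 rose and 3 fell without TARDBP library 1, 2 rose and 0 fell without control library 1 and 2 rose and 0 fell without control library 2. It was also 16 with no filter on low counts. Ribosomal protein genes have many processed pseudogenes that can share their reads. Of 81 tested nuclear genes of the respiratory chain 12 rose and 11 fell, below the background in both directions. COX4I1 and COX6B1, subunits of cytochrome c oxidase, measured 101 and 91.8 against 20.2 and 23.2 CPM (2.15) and 63.4 and 56.0 against 11.6 and 16.2 CPM (2.10), and NDUFB5, of complex I, 52.6 and 51.0 against 11.6 and 11.8 CPM (2.14). COX4I1 and COX6B1 stood at -0.28 and -0.29 against control hairpin 2. ATP5F1B, the catalytic beta subunit of ATP synthase, measured 62.3 and 60.0 against 158 and 199 CPM (-1.54) and -2.32 against control hairpin 2. In the respiratory list 3 rose and 1 fell without control library 1 and 4 rose and 1 fell without control library 2. Mitochondrial ribosomal proteins showed 11 rises and 12 falls among 78, with MRPL19 at 0.97 and MRPS7 at -1.03, and 11 rose and 7 fell without TARDBP library 2, 1 rose and 1 fell without control library 1 and 1 rose and 2 fell without control library 2. Calls among them were lost without control library 1 or control library 2 for RPL23 and RPS15 (adjusted p 0.0513 to 0.0868).

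Proteasome subunits fell where they were called, 11 of 31 tested with 0 rises (median -0.13). PSMC3, an ATPase of the regulatory particle, measured 10.3 and 10.5 CPM under the TARDBP hairpin, against 46.1 and 45.5 under control hairpin 1 (log2FC -2.14, SE 0.11, adjusted p = 4.24e-05), and PSMA4, an alpha ring subunit, 14.0 and 15.9 against 50.8 and 56.9 CPM (-1.85, SE 0.12). Both were lower than with control hairpin 2 as well, at -2.57 and -2.14. PSMB7 and PSMD3 fell (log2FC -0.82 and -0.69). Over the subunits 0 rose and 2 fell without control library 1 and 0 rose and 2 fell without control library 2. Endoplasmic reticulum folding genes showed 13 falls and 2 rises among 25. HYOU1, a chaperone, measured 118 and 117 against 211 and 203 CPM (-0.82), EDEM1, which hands misfolded proteins over for disposal, 82.6 and 86.5 against 164 and 151 CPM (-0.90), and DNAJB11 19.8 and 19.9 against 36.6 and 39.2 CPM (-0.93). ERO1A, the oxidase that drives disulphide formation, rose at 66.4 and 63.3 against 15.7 and 19.6 CPM (1.87) to the level of control hairpin 2, and ATF6, a stress sensor, by 0.54. In this list 1 rose and 3 fell without control library 1 and 1 rose and 4 fell without control library 2. Of 31 cytosolic and mitochondrial chaperones 14 fell and 3 rose. CCT2, of the tubulin and actin chaperonin, measured 80.5 and 78.5 against 150.1 and 160.1 CPM (-0.96) and HSPA1B 22.1 and 19.4 against 55.8 and 68.1 CPM (-1.58), a gene nearly identical to HSPA1A. DNAJB4 (40.4 and 43.3 against 13.4 and 15.3 CPM, 1.54), HSPB8 and CCT6A (0.34) rose. Among chaperones 2 rose and 5 fell without control library 1 and 2 rose and 6 fell without control library 2. The following calls were lost without TARDBP library 1, TARDBP library 2, control library 1 or control library 2 for CCT6A (adjusted p 0.0635 to 0.0923) and without control library 1 or control library 2 for PSMB7, PSMD3 and ATF6 (adjusted p 0.0510 to 0.0738).

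Metabolic and stress lists moved in both directions. Of 32 tested genes of cholesterol and fatty acid synthesis 13 fell and 5 rose (median -0.31). HMGCS1, an early enzyme of the mevalonate pathway, measured 11.9 and 10.8 against 32.3 and 29.9 CPM (log2FC -1.45, SE 0.13, adjusted p = 2.06e-04), SCAP, the sterol sensor that escorts SREBP, 38.1 and 33.0 against 88.4 and 97.4 CPM (-1.39), and INSIG1, which retains SCAP, 1.70 and 2.31 against 10.7 and 8.50 CPM (-2.26). In this list 2 rose and 14 fell without TARDBP library 1, 0 rose and 2 fell without control library 1 and 0 rose and 4 fell without control library 2. Of 49 genes of autophagy and the lysosome 21 fell and 9 rose (median -0.34), among them the lysosomal enzymes NEU1 (11.1 and 10.7 against 38.7 and 33.9 CPM, -1.73) and CTSA (47.7 and 45.9 against 109 and 95.3 CPM, -1.13), with SIAE, a sialate esterase, in the other direction (65.5 and 72.6 against 19.8 and 16.7 CPM, 1.92). These 3 held their direction against control hairpin 2, at -1.27, -0.99 and 2.05, and in the list 3 rose and 4 fell without control library 1 and 3 rose and 8 fell without control library 2. Of 32 genes of hypoxia and glycolysis 9 rose and 11 fell. EPAS1, the HIF-2 alpha gene, measured 32.2 and 23.4 against 224 and 194 CPM (log2FC -2.91, SE 0.16, adjusted p = 5.23e-05), whereas HIF1A stood at 251 and 248 against 97.1 and 106 CPM (1.29) and the HIF prolyl hydroxylases EGLN1 and EGLN3 at 83.8 and 85.4 against 26.1 and 34.4 CPM (1.48) and 45.1 and 45.4 against 15.4 and 18.3 CPM (1.42). Among hypoxia genes 3 rose and 4 fell without control library 1 and 4 rose and 6 fell without control library 2. Calls were lost without control library 1 for INSIG1 (adjusted p = 0.0532).

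Of 41 tested genes of the ATF4 response and amino acid supply 14 fell and 8 rose (median -0.20). ALDH18A1, an enzyme of proline synthesis, measured 22.6 and 22.2 against 54.1 and 51.4 CPM (-1.24) and SLC38A2, an amino acid transporter, 319 and 337 against 152 and 176 CPM (1.00). Over that list 3 rose and 3 fell without control library 1 and 4 rose and 4 fell without control library 2. NRF2 and antioxidant genes showed 10 rises and 6 falls among 35. SLC7A11, the cystine transporter, measured 6.89 and 5.86 against 1.55 and 0.983 CPM (2.33), while PGD, an NADPH-making enzyme, fell and stood at 72.4 and 57.2 against 128 and 130.2 CPM. The gene of NRF2, NFE2L2, rose by 0.89. Among NRF2 genes 1 rose and 1 fell without control library 1 and 1 rose and 1 fell without control library 2. In this group calls were lost without control library 1 or control library 2 for PGD and NFE2L2 (adjusted p 0.0643 to 0.0756).

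Genes of HLA class I presentation, which shows peptides to T cells, fell more often than they rose. HLA-C measured 10.7 and 10.7 CPM under the TARDBP hairpin, against 80.8 and 80.5 under control hairpin 1 (log2FC -2.91, SE 0.11, adjusted p = 1.61e-05). HLA-B stood at 1.44 and 0.720 against 7.64 and 6.93 CPM (-2.75). Against control hairpin 2 they stood at -2.67 and -3.13. Class I genes are close copies of each other and reads may be shared between them. Of 16 tested genes of class I presentation 9 fell and 1 rose, the latter TAPBP (0.48), and 0 rose and 8 fell without TARDBP library 1, 0 rose and 2 fell without control library 1 and 0 rose and 2 fell without control library 2. Interferon response and RNA-sensing genes moved in both directions, with 8 rises and 4 falls among 25. MAVS, the adaptor of RNA sensing at the mitochondrion, stood at 72.9 and 74.4 against 195 and 182 CPM (-1.36) and OAS1, which senses double-stranded RNA, at 1.80 and 2.16 against 7.59 and 9.63 CPM (-2.12). OAS3 and TRIM25 fell (log2FC -0.78 and -0.66), and IFIT5 rose by 1.18. Among interferon genes 5 rose and 5 fell without TARDBP library 2, 1 rose and 2 fell without control library 1 and 1 rose and 3 fell without control library 2. Among the genes just named, calls were lost without TARDBP library 1, control library 1 or control library 2 for TAPBP (adjusted p 0.118 to 0.358), without control library 1 for TRIM25 (adjusted p = 0.0673), and also without control library 1 or control library 2 for HLA-B, OAS3 and IFIT5 (adjusted p 0.0526 to 0.123).

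Genes that silence or restrict retroelements showed 10 rises and 7 falls among 41 tested (median -0.011). UHRF1, which guides maintenance DNA methylation, measured 11.5 and 11.7 against 28.1 and 33.0 CPM (log2FC -1.39, SE 0.13, adjusted p = 2.99e-04), and CBX5, heterochromatin protein 1 alpha, 378 and 378 against 164 and 199 CPM (1.05). DNMT3A, a DNA methyltransferase, and ATF7IP, a partner of the methyltransferase SETDB1, fell (log2FC -0.74 and -0.76). Here 1 rose and 1 fell without control library 1 and 1 rose and 4 fell without control library 2. Of 501 numbered zinc finger genes, many of which encode KRAB repressors of retroelements, 61 rose and 69 fell, 12.2% and 13.8%, below the background in both directions. ZNF395 measured 14.9 and 14.5 against 56.0 and 44.3 CPM (-1.77) and ZNF512B 27.8 and 31.2 against 83.6 and 83.8 CPM (-1.50), and in that list 0 rose and 5 fell without control library 1 and 1 rose and 12 fell without control library 2. Long noncoding RNAs of the nucleus and snoRNA hosts rose more often, 12 of 21 with 3 falls (median 0.46). GAS5, a snoRNA host, measured 250.1 and 244 against 129 and 116 CPM (log2FC 1.02, SE 0.095, adjusted p = 2.69e-04) and stood 0.93 above control hairpin 2. The falls were KCNQ1OT1 (-0.94), TUG1 (-0.82) and SNHG6 (-0.88), and 1 rose and 0 fell without control library 1 and 3 rose and 3 fell without control library 2. Of 10 tested HOX genes HOXC5 (0.96) and HOXD3 (0.89) rose. Of the calls above, some were lost without TARDBP library 2, control library 1 or control library 2 for HOXD3 (adjusted p 0.0782 to 0.174), without control library 1 for DNMT3A, ATF7IP, KCNQ1OT1, TUG1 and SNHG6 (adjusted p 0.0517 to 0.0539), and also without control library 1 or control library 2 for HOXC5 (adjusted p 0.0730 to 0.0960).

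Repeat subfamilies shifted little and mostly upward. Their reads come from retroelements and other repeats across the genome, including copies inside introns and untranslated regions of genes, so a subfamily's count need not be its own transcription. Repeats took 25.2% ± 0.772 of counts under the TARDBP hairpin, against 24.1% ± 0.999 under control hairpin 1 (SD, n = 2 each, exact two-sided permutation p = 0.667, where 0.333 is the smallest p that 2 against 2 libraries allow). The 7SK row, a small nuclear RNA that is not a transposon, held 3.65% ± 1.03 and 2.40% ± 0.397 of counts (SD, n = 2 each). Transposon rows alone held 21.4% ± 0.265 and 21.5% ± 0.597, a difference of -0.142 percentage points. Of 958 tested subfamilies 122 were called, 119 upward and 3 downward, which is 12.7% beside the 41.4% over everything tested, and 8 changed 2-fold or more. The median log2FC of repeats was 0.096. In 479 of the 958 both TARDBP-hairpin libraries lay above both of control hairpin 1, and in 145 below both. These calls varied with single libraries: 63 and 85 were made without library 1 and library 2 of the TARDBP hairpin, and 1 and 2 without library 1 and library 2 of control hairpin 1. DESeq2 called 66, the fit with a replicate block 60, and the fit with no filter on low counts 63.

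Most repeat rises were in LTR elements, which include endogenous retroviruses. Of 491 tested LTR subfamilies 95 rose, 19.3%, a share at the background of 19.3%, and 2 fell (median 0.19). DESeq2 called 50 rises and the fit with the replicate block 46. Rises numbered 58 of 250 in ERV1, 17 of 102 in ERVL, 5 of 37 in ERVK, 9 of 19 in Gypsy and 5 of 78 in ERVL-MaLR, where 2 fell. ERV1 subfamilies summed to 7009.7 and 7030.0 CPM under the TARDBP hairpin, against 5903 and 6015 under control hairpin 1, and Gypsy subfamilies to 345 and 340.3 against 271 and 266. Libraries did not overlap in these sums. ERVK subfamilies summed to 9275, 4572, 3101 and 5594 CPM in the same order of libraries, and these groups did overlap. MER11B held most of that sum, at 8113 and 3317 CPM under the TARDBP hairpin, against 2032 and 4575 under control hairpin 1 (log2FC 0.79, SE 0.46, adjusted p = 0.204). It was highest in the library where 7SK was highest, and which reads it counted was not tested. Rises were found both among internal parts of LTR elements, 35 of 127, and among the other LTR subfamilies, 60 of 364. Over LTR subfamilies 47 rose and 0 fell without TARDBP library 1, 62 rose and 3 fell without TARDBP library 2, 1 rose and 0 fell without control library 1 and 0 rose and 0 fell without control library 2.

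**Figure D5:**
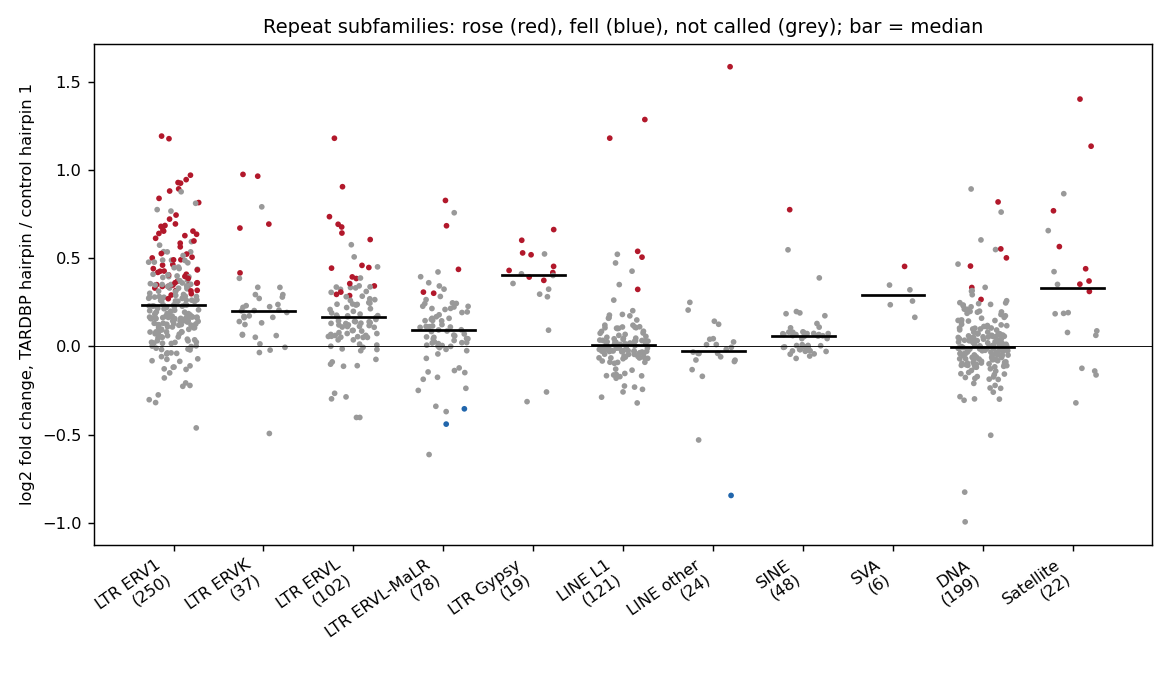
Log2 fold change of the TARDBP hairpin against control hairpin 1 (vertical axis) for each tested repeat subfamily, by family or class with the number tested in parentheses; red rose, blue fell, grey was not called, and the bar is the median. Medians of ERV1, Gypsy and satellite subfamilies lie above 0, and those of L1, DNA and other LINE subfamilies close to 0.

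Among single subfamilies the lowest p belonged to L1M2a1, an old L1 subfamily, at 19.6 and 18.0 CPM under the TARDBP hairpin, against 8.05 and 7.37 under control hairpin 1 (log2FC 1.29, SE 0.14, adjusted p = 5.20e-04). HERVP71A-int measured 32.9 and 35.7 against 18.1 and 17.5 CPM (0.94), LTR25-int 31.8 and 30.8 against 18.0 and 14.0 CPM (0.97) and HERV17-int, the internal part of the family that gave rise to syncytin 1, 51.4 and 53.3 against 32.9 and 35.5 CPM (0.61). In each of these both TARDBP-hairpin libraries lay above both controls, and the control hairpins differed by -0.080, -0.19 and -0.13. The 3 that fell were X2_LINE (4.63 and 4.47 against 9.08 and 7.27 CPM, -0.84), MSTA-int (393 and 429 against 555 and 496 CPM, -0.35) and MST-int (38.3 and 48.0 against 64.4 and 52.7 CPM, -0.44). MSTA-int and MST-int were -0.74 and -0.97 in control hairpin 2 relative to control hairpin 1 (adjusted p = 8.78e-04 and 0.00161), and the TARDBP hairpin lay 0.41 and 0.56 above control hairpin 2. X2_LINE stood at -0.28 against control hairpin 2, and L1M2a1 at 1.36. Some of these calls were lost without TARDBP library 1, control library 1 or control library 2 for MSTA-int and MST-int (adjusted p 0.0782 to 0.340), without control library 1 for L1M2a1 (adjusted p = 0.0509), and also without control library 1 or control library 2 for HERVP71A-int, HERV17-int and X2_LINE (adjusted p 0.0503 to 0.102), and without control library 2 for LTR25-int (adjusted p = 0.0520).

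Young elements that can still move, or did so recently, showed few calls. Of 9 tested young L1 subfamilies, L1HS and L1PA2 to L1PA8A, none rose or fell, and 0 had an unadjusted p below 0.05 in edgeR or a call in DESeq2. L1HS, the youngest, measured 113 and 119 CPM under the TARDBP hairpin, against 132 and 128 under control hairpin 1 (log2FC -0.16, SE 0.089, adjusted p = 0.193), with the TARDBP-hairpin libraries slightly below both controls. L1PA2 stood at 602 and 716 against 700.2 and 639 CPM (-0.023) and L1PA8A at 224 and 226 against 188 and 203 CPM (0.20), with the others between -0.090 for L1PA4 and 0.027 for L1PA8. Of 6 SVA subfamilies, composite elements that L1 mobilises, SVA_E rose (32.5 and 27.0 against 20.7 and 22.7 CPM, log2FC 0.45, SE 0.13, adjusted p = 0.0304). The other 5 were not called and ranged from 0.17 for SVA_C to 0.35 for SVA_F. Without TARDBP library 2 SVA_B and SVA_F were called (adjusted p = 0.0281 and 0.0131). HERVK-int, the internal part of the HERV-K group, measured 69.9 and 90.1 CPM under the TARDBP hairpin, against 51.0 and 47.9 under control hairpin 1 (log2FC 0.69, SE 0.14, adjusted p = 0.00584). Its promoters, the LTR5 group, were not called, with LTR5_Hs at 114 and 125 against 109.5 and 104 CPM (0.16), LTR5B at 0.23 and LTR5A at -0.0047. HERVK-int was -0.62 in control hairpin 2 relative to control hairpin 1 (adjusted p = 0.00856), and the TARDBP hairpin stood 1.34 above control hairpin 2. Of 22 tested satellite subfamilies 8 rose, of 199 DNA transposons 6, of 145 LINE subfamilies 6 with 1 fall, and of 48 SINE subfamilies 1. Leaving out libraries in turn gave 0 to 5 rises for satellites and 0 to 1 for SINE subfamilies, and without library 1 of control hairpin 1 there were 0 rises in each of these 4 classes. Calls among them were lost without TARDBP library 1, control library 1 or control library 2 for SVA_E (adjusted p 0.151 to 0.226) and without control library 1 or control library 2 for HERVK-int (adjusted p 0.119 to 0.137).

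Some genes had counts with one hairpin and 0 with the other. For these a fold is a lower bound, computed against a floor of 3 counts over the group without counts. ZNF705A, a zinc finger gene, had 459 counts over the 2 TARDBP-hairpin libraries and 0 over the 2 of control hairpin 1, at least 151-fold higher. It belongs to a family of near-identical copies. CRYAB, the small heat shock protein alpha-B crystallin, had 83 against 0 counts, at least 27.2-fold higher, and GBX2, a homeobox factor, 67 against 0, at least 22.0-fold higher. In the other direction CRH, the stress hormone that releases corticotropin, had 0 against 106 counts, at least 35.9-fold lower, and SLC24A2, a sodium, calcium and potassium exchanger, 0 against 92, at least 31.1-fold lower. All 5 were called, and were chosen after their values were seen. The control hairpins differed from each other in CRYAB, which control hairpin 2 had more of (adjusted p = 1.28e-04), and in CRH and SLC24A2, which it had less of (adjusted p = 0.00367 and 4.45e-04). A count of 0 shows only that the gene was not detected at this depth. The following calls were lost without control library 1 for ZNF705A, CRYAB, GBX2 and CRH (adjusted p 0.0509 to 0.0662) and without control library 1 or control library 2 for SLC24A2 (adjusted p 0.0510 to 0.0609).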

How the data were processed

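RNA was sequenced in 4 libraries, 2 for each hairpin, grouped by their titles. The deposited files hold raw read counts per gene and per repeat subfamily, made by the authors. Per the submitters' processing notes, bcl2fastq and STAR 2.5.2b were used on build hg19. The counting tool, its use of strand and its treatment of reads that map to several places are not stated in any source used here, and repeats, paralogs and overlapping genes depend on them.

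Genes and repeats were fitted together with edgeR 4.0.16 (limma 3.58.1, R 4.3.3): filterByExpr with a minimum count of 10 and a minimum total of 15, TMM scaling, the quasi-likelihood F test and Benjamini-Hochberg adjustment over all 16859 tested, called below 0.05. Residual degrees of freedom were 2 and prior ones 5.36, with 10.6% biological variation (BCV). Values against control hairpin 2 came from a fit of all 6 libraries. On simulated data for this comparison (16622 genes and subfamilies, 200 changed), 26%, 78% and 96% of 1.5-fold, 2-fold and 4-fold changes were recovered, and 22 of 166 calls were false.

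The text names TARDBP, the 15 largest rises and falls of called genes at a mean log2 CPM of 3 or more without overlap between groups, the 4 called members of lowest p in each list, all called members of a direction with 5 or fewer, the 4 repeat rises and falls of lowest p, and the young L1, SVA and HERV-K subfamilies. Uncharacterised, antisense and small RNA symbols were left out of the largest changes. Members and lists were chosen with earlier results of these data known. CKAP2L, DLGAP5, UNC13A, PHOX2A, MER11B, the members of the marker lists and the genes at 0 in a group were named after their values were seen. Promoter sequences are RefSeq's (GRCh38.p14). Some genes the rule names are not reported here. Alternatives were RLE scaling, TMM from genes alone, DESeq2 1.42.0, no filter, all 6 libraries, genes alone, a test against a 1.5-fold change, a replicate block, and each library left out.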

Additional observations from a re-analysis of the deposited data

How the results depend on the processing

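Beside the 6985 calls of edgeR's quasi-likelihood test, RLE scaling gave 7027, TMM from genes alone 6974, the fit of all 6 libraries 7364, genes alone 6932, DESeq2 5728 and no filter on low counts 5406, and none of these scalings moved the median of all log2 fold changes by 0.1 or more. Tested against a 1.5-fold change, 2482 were called (1107 rose and 1375 fell), 2476 of them genes and 6 repeat subfamilies. Repeat calls were 122 in the reported fit, 66 in DESeq2 and 63 without a filter on low counts. With each library left out in turn, calls ranged from 917 to 6462 (300 to 3007 rose and 617 to 3541 fell), gene calls from 916 to 6399 and repeat calls from 1 to 85. The low ends came without library 1 of control hairpin 1. The prior degrees of freedom were 48.1 and 59.2 without a library of the TARDBP hairpin and 2.03 and 2.04 without a control library, where the lone library is assumed to vary like the other group. The log2 fold change of TARDBP ranged from -2.04 to -1.71. The difference in repeat share of counts ranged from 0.411 to 1.82 percentage points with a library left out and was -0.142 for transposons alone, a choice made after seeing the data. Of 3677 values of named genes and subfamilies under these settings, 3330 kept direction and side of the threshold, 339 lost the call, 8 gained one and 0 changed direction when called.

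The groups share replicate numbers, but the labels do not tie them to a culture or day. Deviations of same-numbered libraries correlated at -0.245, so the numbers were not taken to pair the libraries. With the replicate block 5968 were called (2746 rose and 3222 fell), 60 of them repeat subfamilies. The crossed pairing, added after seeing that correlation, gave 9164 calls, 223 of them repeat subfamilies. Genes with fewer than about 10 counts per library in both groups were below what this depth can test.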
